A study of Homo sapiens with 10 samples.

Results

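The 9 genes described here restrain the growth-promoting kinase mTOR, and they were followed in BJ fibroblasts after p53 activation: the sestrins SESN1, SESN2 and SESN3, and DDIT4, TSC1, TSC2, PRKAB1, DEPTOR and AKT1S1. They were chosen by name, from what the encoded proteins are known to do. No measured value served as the rule, but earlier results of these data were known. The study itself had reported SESN1 and SESN2 as strongly induced by nutlin-3a. All 9 were listed in the RNA-Seq table of 13279 transcripts, and 8 of them, all but SESN3, in the Ribo-Seq table of 11337. BJ cells are human foreskin fibroblasts, here immortalised with telomerase (hTERT), so p53 in them can still be switched on. An untreated control was set beside cells that had received nutlin-3a for 2, 4, 6 or 19 h. Nutlin-3a is a small molecule that keeps MDM2, the main inhibitor of p53, from binding it. Each of these 5 conditions was profiled once by RNA-Seq of poly(A) RNA and once by Ribo-Seq, in which the stretches of mRNA covered by ribosomes are sequenced. With 1 library per condition and assay the differences have no replicate check and no p-value was computed, so every error and interval given here covers the counting of reads only.

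The mTOR complex mTORC1 drives protein synthesis and cell growth when amino acids, growth factors and energy are in supply. Its brakes act at separate levels. Sestrins hold back the arm that senses amino acids, by binding the GATOR2 complex, and are also known to act through the energy sensor AMPK. DDIT4 (REDD1) acts through the complex of TSC1 and TSC2, which turns off Rheb, the small GTPase that switches mTORC1 on. PRKAB1 is the beta-1 subunit of AMPK, which phosphorylates TSC2 and mTORC1 itself. DEPTOR and AKT1S1 (PRAS40) bind the mTOR complexes directly and inhibit them. SESN1, SESN2, DDIT4 and PRKAB1 are known p53 targets, and SESN2 and DDIT4 are also known to respond to stress through ATF4.

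The libraries held 23845533 to 27554333 reads (RNA-Seq) and 7744898 to 14460732 reads (Ribo-Seq), as recovered from the spacing of the deposited values. All 10 fibroblast markers were at 1 FPKM or more in every RNA-Seq library, with a summed level of 8875 to 11464 FPKM. Of 6 epithelial markers 5 had values. KRT18 lay at 230 to 315 FPKM, KRT8 at 10.6 to 14.2 FPKM, and CDH1 reached 0.025 FPKM at most. Of 4 endothelial markers 2 had values, VWF and TEK, and neither reached 1 FPKM. Of 4 haematopoietic markers 2 had values, CD68 at 61.4 to 86.4 FPKM and PTPRC at 0.246 FPKM at most. RNA of the p53 target CDKN1A, which encodes p21, measured 68.6 FPKM in the control and 1316 FPKM at 19 h. In bulk RNA of this kind, a change in the share of cells that express a gene and a change in its RNA per cell cannot be told apart.

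In untreated cells AKT1S1 and TSC2 were the most abundant brakes, and those known as p53 targets, PRKAB1 apart, were the least abundant of the readily detected genes. Levels are in FPKM, read numbers divided by transcript length and library size, so RNA levels can be set side by side between genes. Ribo-Seq levels appeared scaled to the whole transcript, untranslated regions included, so their order and sums across genes also depend on how much of each transcript is coding. The RNA order in the control was AKT1S1 (29.2 FPKM), TSC2 (15.3 FPKM), PRKAB1 (9.88 FPKM), TSC1 (7.76 FPKM), SESN2 (4.53 FPKM), SESN1 (3.38 FPKM) and DDIT4 (3.05 FPKM), with DEPTOR (0.082 FPKM) and SESN3 (0.013 FPKM) far below. From AKT1S1 down to DEPTOR, neighbours in this order differed by more than 1.96 counting SE, except SESN1 and DDIT4, which did not. For DEPTOR and SESN3 no counting SE of the difference was computed. By 4 h the order had turned over. SESN2 was then highest at 37.5 FPKM, followed by DDIT4 at 34.2 FPKM, AKT1S1 at 27.3 FPKM and SESN1 at 20.4 FPKM, and these 4 lay further apart than 1.96 counting SE. TSC2 and PRKAB1 did not differ beyond the counting error at 4 h or 6 h, nor did AKT1S1 and SESN1 at 6 h. In the Ribo-Seq library of 4 h DDIT4 was highest of the 8 genes, at 59.6 FPKM against 39.6 FPKM for AKT1S1, whereas in the other 4 Ribo-Seq libraries AKT1S1 led.

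**Figure D1:**
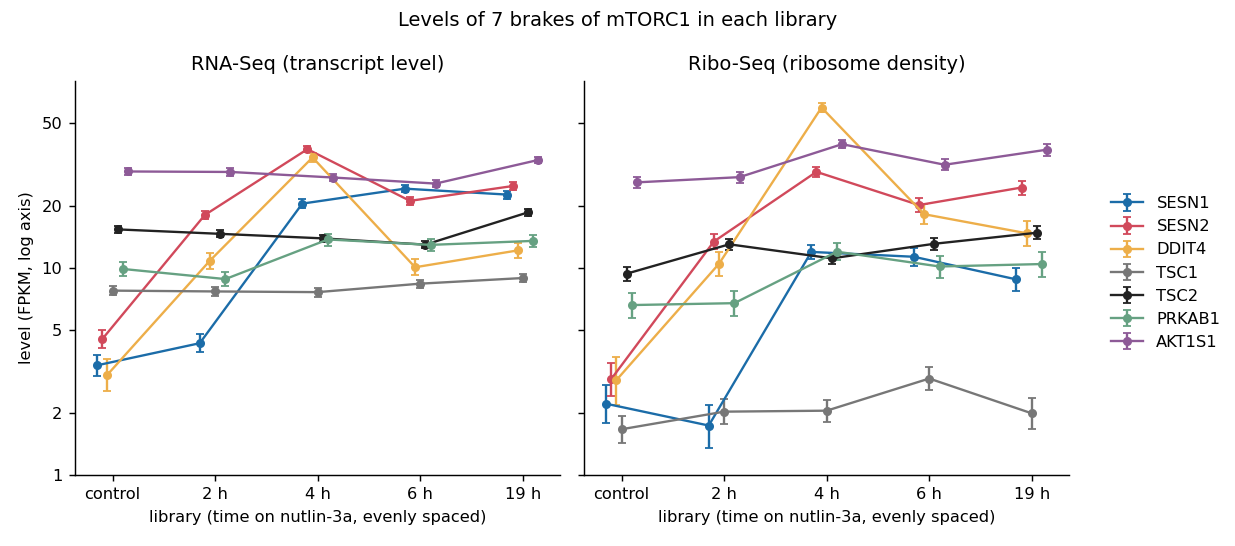
Levels of the 7 brakes above 1 FPKM in each library, in FPKM on a log axis, by RNA-Seq (left) and Ribo-Seq (right); points are single libraries, evenly spaced in order of time on nutlin-3a, and bars are exact 95% Poisson counting intervals. SESN1, SESN2 and DDIT4 start at or near the bottom and pass TSC1 and PRKAB1 in RNA by 4 h, while AKT1S1, TSC2 and TSC1 move little in RNA.

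SESN1 (ENSG00000080546, chromosome 6) stayed low at 2 h and was high from 4 h onwards. Its RNA measured 3.38 FPKM (283 reads) in the control, 4.33 FPKM at 2 h, 20.4 FPKM at 4 h, 24.2 FPKM at 6 h and 22.6 FPKM (2066 reads) at 19 h. The step from 2 h to 4 h was 4.73-fold, and that from 4 h to 6 h was 1.18-fold. Between 6 h and 19 h RNA was nearly level, at 0.936-fold. Ribosome density, the Ribo-Seq level, was 2.21 FPKM (91 reads) in the control, 1.73 FPKM (72 reads) at 2 h, 11.9 FPKM at 4 h, 11.3 FPKM at 6 h and 8.79 FPKM (239 reads) at 19 h. It was thus highest at 4 h and 6 h, which did not differ beyond counting error, and fell by 0.36 on the log2 scale from 6 h to 19 h (95% interval -0.60 to -0.13).

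RefSeq (GRCh38.p14) gives SESN1 3 start sites for which a promoter window, from 250 bases before the start to 50 after, was at hand. A p53 half-site, the 10-base element of which a full p53 site holds a pair, was searched on both strands as a description of these windows, since SESN1 is among the genes that were higher after p53 activation. It was found in 1 of the 3 windows, beginning 49 bases before the start site. The stretch lies on the minus strand at chr6:109009018-109009047 and is shown 5' to 3', with the match in capitals and 10 bases to either side in lower case.
SESN1 half-site: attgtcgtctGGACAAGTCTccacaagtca
Among all 35116 promoter windows 6.63% hold a match to the half-site, and of the 10 windows that belong to 7 of the brakes this was the only one. The ATF4 element TGATGNAAT was in 0 of those 10 windows and in 0.991% of all. The FPKM values do not tell which of the SESN1 start sites was used.

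SESN2 (ENSG00000130766, chromosome 1) was already higher at 2 h, peaked at 4 h and stayed high to 19 h. RNA was 4.53 FPKM (373 reads) in the control, 18.0 FPKM at 2 h, 37.5 FPKM at 4 h, 21.1 FPKM at 6 h and 24.9 FPKM at 19 h. After the 4 h peak the level at 6 h was 0.563 of that at 4 h, and from 6 h to 19 h it was 1.18-fold higher again. Ribosome density went from 2.91 FPKM (118 reads) in the control to 13.4 FPKM at 2 h, 29.1 FPKM at 4 h, 20.1 FPKM at 6 h and 24.5 FPKM (654 reads) at 19 h. The drop from 4 h to 6 h was smaller in density, at 0.691-fold, than in RNA. Every treated library lay above the control by 3.98-fold or more in RNA and by 4.62-fold or more in density.

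The 2 sestrins thus differed in timing. At 2 h SESN2 RNA was 3.98-fold and SESN1 RNA 1.28-fold over the control, and the log2 change of SESN1 was lower than that of SESN2 by 1.64 (a difference of -1.64, 95% interval -1.91 to -1.37). At 6 h the difference had the opposite sign, 0.62 (0.38 to 0.86), with SESN1 the more changed. Added up, SESN1 and SESN2 went from 7.91 FPKM in the control to 57.9 FPKM at 4 h and 47.5 FPKM at 19 h in RNA. SESN1 made up 42.7% of that RNA sum in the control, and 19.4%, 35.3%, 53.4% and 47.6% of it at 2, 4, 6 and 19 h. In ribosome density its share was close to the RNA share in the control, at 43.2%, and lower in each treated library, at 11.4%, 29.1%, 36.0% and 26.4% in the same order. The RNA-Seq libraries of 6 h and 19 h therefore held about as much SESN1 as SESN2, while the Ribo-Seq libraries of the same times held more SESN2.

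**Figure D2:**
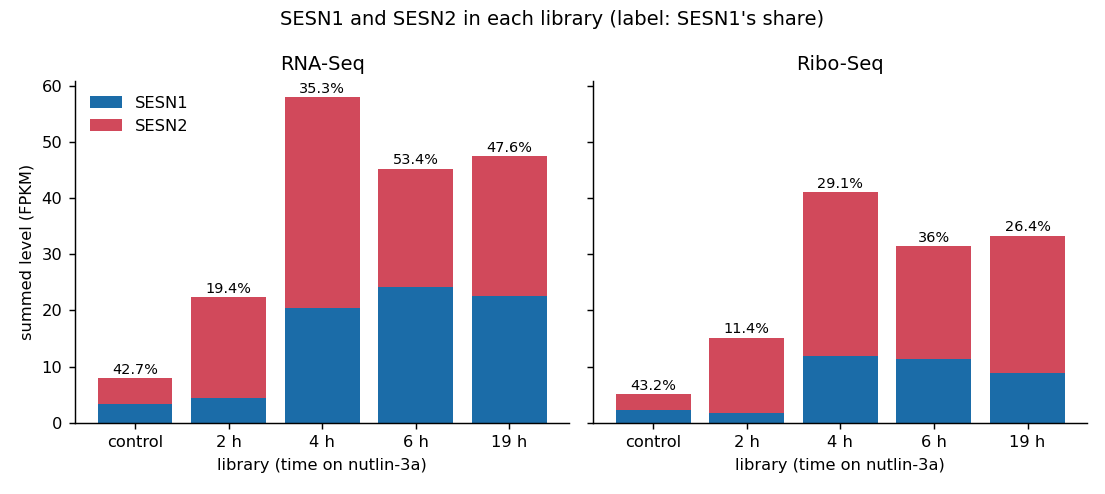
Stacked levels of SESN1 and SESN2 in FPKM in each RNA-Seq (left) and Ribo-Seq (right) library, with the share of SESN1 written above each bar. The share of SESN1 at 19 h is 47.6% in RNA and 26.4% in ribosome density, against 42.7% and 43.2% in the control.

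Translational efficiency (TE), the log2 ratio of Ribo-Seq over RNA-Seq level, moved in opposite directions from the control for the 2 sestrins. SESN1 had a TE of -0.62 in the control and of -1.32, -0.78, -1.09 and -1.36 at 2, 4, 6 and 19 h. SESN2 had a TE of -0.64 in the control and of -0.43, -0.36, -0.07 and -0.02 at the same times. The values of the 2 genes were close in the control and apart at 19 h. How much of each transcript is coding was not recovered, so their TE levels are not strictly comparable. The TE change of SESN1 was -0.70 (95% interval -1.20 to -0.21) at 2 h, -0.48 (-0.85 to -0.10) at 6 h and -0.74 (-1.14 to -0.35) at 19 h, and at 4 h, with -0.16, the interval reached past 0. For SESN2 it was 0.57 (0.25 to 0.90) at 6 h and 0.62 (0.29 to 0.94) at 19 h, with intervals that held 0 at 2 h and 4 h. The difference between both changes, SESN1 minus SESN2, was -0.92 (-1.52 to -0.32) at 2 h and -0.44 (-0.92 to 0.05) at 4 h. It was -1.05 (-1.54 to -0.56) at 6 h, and -1.36 (-1.87 to -0.85) by 19 h. The transcripts have recovered lengths of 3509 and 3453 nt, so they hardly differ in length. The direction of SESN2 and the size of the difference rest on the low control values. A floor of 5 FPKM is above the control levels of both genes, so it sets the control TE of both to 0. Each change is then only the TE level of the treated library. That of SESN2 was -0.43, -0.36, -0.07 and -0.02 at 2, 4, 6 and 19 h. At 2 h SESN1 was also under this floor in both assays, and the difference was 0.43. The differences of -1.03 at 6 h and -1.34 at 19 h are between TE levels, and so not strictly comparable. With the 2 h libraries as baseline and the floor of 1 FPKM, the difference was -0.13 (-0.57 to 0.30) at 6 h and -0.44 (-0.89 to 0.01) at 19 h. At 4 h it had the opposite sign, 0.48 (0.06 to 0.90).

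DDIT4 (ENSG00000168209, chromosome 10) showed the sharpest peak of the brakes. RNA was 3.05 FPKM (127 reads) in the control, 10.8 FPKM at 2 h, 34.2 FPKM at 4 h, 10.1 FPKM at 6 h and 12.1 FPKM at 19 h. The level at 6 h was 0.295 of that at 4 h, and below that at 2 h. At 4 h the RNA change was 11.2-fold, and 4 of the 7015 tested genes, the genes that reached 5 FPKM in 1 or more RNA-Seq and 1 or more Ribo-Seq libraries, had a larger one. Ribosome density was 2.87 FPKM (59 reads) in the control, 10.5 FPKM at 2 h, 59.6 FPKM (1506 reads) at 4 h, 18.2 FPKM at 6 h and 14.7 FPKM at 19 h. At 4 h it was 20.8-fold over the control (log2 4.38, 95% interval 4.00 to 4.78), and 2 tested genes exceeded it. The TE of DDIT4 was near the control at 2 h, with a change of 0.04. It was higher by 0.89 (0.43 to 1.35) at 4 h and by 0.94 (0.45 to 1.43) at 6 h, and the change of 0.36 at 19 h had an interval that held 0. So RNA and TE were both high at 4 h, and at 6 h TE was still high when RNA had dropped back.

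TSC1 and TSC2, the 2 subunits whose complex turns off Rheb, differed from the control by 1.21-fold or less in RNA in all 4 treated libraries. TSC1 (ENSG00000165699, chromosome 9) RNA was 7.76, 7.69, 7.64, 8.39 and 8.93 FPKM in the order control, 2, 4, 6 and 19 h. TSC2 (ENSG00000103197, chromosome 16) RNA was 15.3, 14.6, 13.9, 13.0 and 18.5 FPKM in the same order. TSC2 was lower by 0.24 (log2) at 6 h and higher by 0.27 at 19 h, both past the counting error. Per length there was 1.98 times as much TSC2 as TSC1 RNA in the control, 1.54 times at 6 h and 2.08 times at 19 h. The ribosome density of TSC2 was 9.38 FPKM in the control, 13.0 FPKM at 2 h, 11.1 FPKM at 4 h, 13.1 FPKM at 6 h and 14.8 FPKM at 19 h. Its TE was higher than in the control at every time, by 0.54, 0.39, 0.72 and 0.38, with each interval above 0, though against the 2 h library its TE was lower by 0.15 at 4 h and 0.16 at 19 h (changes of -0.15 and -0.16). TSC1 had 1.66 FPKM (168 reads) of ribosome density in the control, 2.02 FPKM at 2 h, 2.04 FPKM at 4 h, 2.92 FPKM at 6 h and 1.98 FPKM (132 reads) at 19 h. Its TE change was largest at 6 h, at 0.70 (0.41 to 1.00), and 0.05 at 19 h. Both are long transcripts, of 8604 nt (TSC1) and 6156 nt (TSC2). The 702 tested transcripts with a recovered length of 5000 nt or more had a median TE change of 0.13, 0.15, 0.12 and -0.0081 at 2, 4, 6 and 19 h, against 0.04, 0.18, 0.0021 and -0.07 over all tested genes. The part of length in the changes of TSC1 and TSC2 was not tested.

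PRKAB1 (ENSG00000111725, chromosome 12) had RNA levels of 9.88 FPKM in the control, 8.83 FPKM at 2 h, 13.7 FPKM at 4 h, 12.9 FPKM at 6 h and 13.5 FPKM at 19 h. The step came between 2 h and 4 h, at 1.55-fold, as for SESN1, and the later levels did not differ from one another beyond counting error from 4 h to 6 h or from 6 h to 19 h. Ribosome density was 6.61 FPKM (203 reads) in the control, 6.75 FPKM at 2 h, 11.98 FPKM at 4 h, 10.2 FPKM at 6 h and 10.4 FPKM (211 reads) at 19 h. Its largest change over the control was 1.39-fold in RNA and 1.81-fold in density, both at 4 h. PRKAB2, the other beta subunit of AMPK, was the less abundant: PRKAB1 held 61.4% to 66.9% of their summed RNA over the 5 libraries. PRKAB2 RNA was 5.2, 4.7, 6.8, 8.1 and 7.7 FPKM in the order control, 2, 4, 6 and 19 h. It too was above the control from 4 h on.

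AKT1S1 (ENSG00000204673, chromosome 19), which encodes the mTORC1 inhibitor PRAS40, changed more in ribosome density than in RNA. RNA was 29.2, 29.1, 27.3, 25.6 and 33.2 FPKM in the order control, 2, 4, 6 and 19 h. The ribosome density in the same order was 25.9, 27.5, 39.6, 31.5 and 37.3 FPKM. RNA at 4 h and 6 h was just below the control while density was above it. TE was higher by 0.71 (0.57 to 0.85) at 4 h, 0.48 (0.32 to 0.63) at 6 h and 0.34 (0.18 to 0.50) at 19 h, where the medians over all tested genes were 0.18, 0.0021 and -0.07. The annotated gene overlaps another protein-coding gene, TBC1D17, as SESN1 does ARMC2 and TSC2 does PKD1 (RefSeq, GRCh38.p14). Whether the strand was used in counting is not given in the sources used here, so reads from the overlaps are uncertain for these 3 genes.

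DEPTOR (ENSG00000155792, chromosome 8) and SESN3 (ENSG00000149212, chromosome 11) were close to undetected. DEPTOR RNA was 0.082, 0.116, 0.143, 0.155 and 0.194 FPKM in the order control, 2, 4, 6 and 19 h, which is 5 to 13 reads. Its Ribo-Seq levels rested on 1 to 9 reads. SESN3 RNA lay between 0.004 FPKM at 4 h and 0.056 FPKM at 19 h, too few reads for a length or an error to be recovered. Both were under the floor of 1 FPKM in every library. For DEPTOR the counting interval of each change held 0, except for ribosome density at 6 h, where 9 reads stood against 1 in the control.

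Over all 9 brakes the genes past a 2-fold change in RNA, after the floor of 1 FPKM, were SESN2 and DDIT4 at 2 h and SESN1, SESN2 and DDIT4 at 4 h, 6 h and 19 h. All were higher. That is 2 of 9 at 2 h, where 0.927% of the tested genes were past 2-fold higher, and 3 of 9 at 4 h, 6 h and 19 h, where 1.41%, 1.75% and 2.49% were. No brake was past 2-fold lower in RNA, where 0.0143%, 0.684%, 5.39% and 7.1% of the tested genes were at 2, 4, 6 and 19 h. In ribosome density the same genes passed, 2 of 8 at 2 h and 3 of 8 at each later time (2 of 8 at 19 h with a floor of 5 FPKM, where SESN1 was at 0.81), against 2.12%, 2.58%, 5.26% and 6.22% of tested genes. None of the 8 was past 2-fold lower in density, against 0.128%, 0.527%, 8.04% and 14.9%. In TE 0 of 8 brakes passed 2-fold in either direction at any time, where 1.2%, 0.998%, 5.74% and 6.14% of the tested genes did. Only 6 of the 9 brakes were among the tested genes, as TSC1, DEPTOR and SESN3 did not reach the 5 FPKM limit in both assays. The floor set every change of DEPTOR and SESN3 to 0, so neither could pass in either direction. SESN1, SESN2 and DDIT4 entered the tested genes through treated libraries, as their control levels were below the 5 FPKM limit.

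The 4 other brakes above 1 FPKM, TSC1, TSC2, PRKAB1 and AKT1S1, were all above the control in ribosome density at each time, by 0.03 to 0.86 (log2). The counting interval lay above 0 for 1, 4, 4 and 3 of the 4 at 2, 4, 6 and 19 h. In RNA 0 of the 4 were above the control at 2 h and 1, 2 and 4 were at the later times, and at 4 h and 6 h the interval lay below 0 for 2 of them, TSC2 and AKT1S1. With SESN1, SESN2 and DDIT4 added, 6 of 7 exceeded the control in density at 2 h and 7 of 7 at each of 4, 6 and 19 h. Of all tested genes 51.9%, 61.4%, 48.5% and 39.9% did at these times. In RNA 3, 4, 5 and 7 of the 7 were above the control at 2, 4, 6 and 19 h, and 35.4%, 33.6%, 49.7% and 42.8% of tested genes were. The lowest density change among the 7 at 19 h was that of TSC1, at 0.26 (-0.08 to 0.59).

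**Figure D3:**
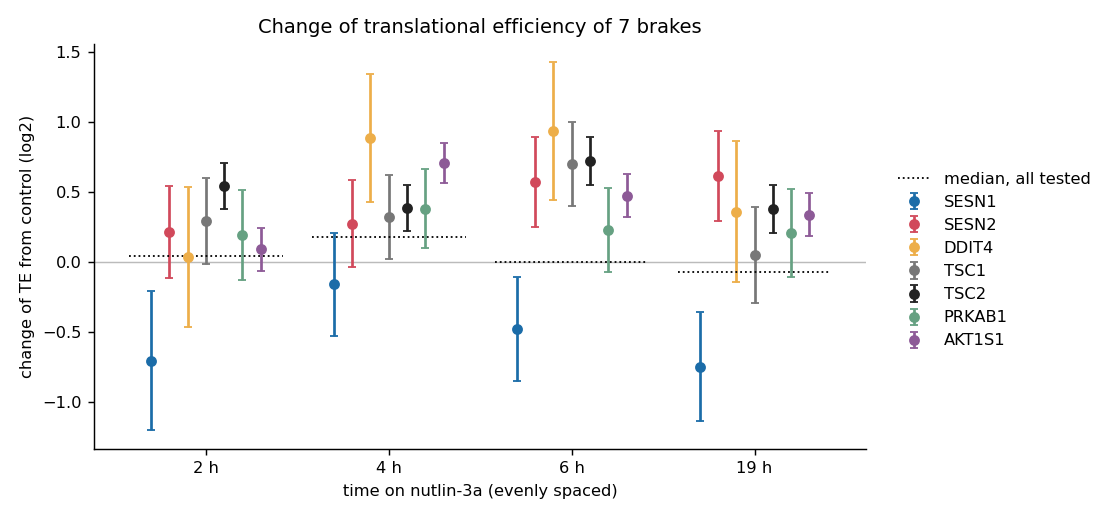
Change of TE from the control (log2) of 7 brakes at each time on nutlin-3a; points are single libraries, bars are 95% counting intervals and dotted lines are the medians over 7015 tested genes. SESN1 lies below 0 at all 4 times and the other 6 brakes lie above 0. Of all tested genes 56.5%, 73.3%, 50.2% and 44.4% lie above 0 at 2, 4, 6 and 19 h. The interval lies above 0 for 1, 5, 5 and 3 of the 7 brakes at these times, and at all 4 times only for TSC2.

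Added up over the listed brakes, RNA went from 73.3 FPKM in the control to 93.6 FPKM at 2 h, 154.8 FPKM at 4 h, 115.3 FPKM at 6 h and 134.1 FPKM at 19 h. The sestrins and DDIT4 made up 15.0% of this sum in the control and 35.5%, 59.5%, 48.0% and 44.5% at the later times. In ribosome density the same genes went from 15.5% of the sum in the control to 60.8% at 4 h and 42.6% at 19 h. The make-up of the brakes thus shifted from AKT1S1, TSC2 and PRKAB1 towards SESN1, SESN2 and DDIT4, in RNA and density alike.

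The genes whose pattern was most like that of each of these 3 were found by the root mean square difference over 8 log2 changes, 4 times in RNA and 4 in ribosome density, among the tested genes outside the list. For SESN1 they were C1orf183 (0.34), C12orf5 (0.43), which encodes the glycolysis regulator TIGAR, and TP53INP1 (0.44), a p53-induced stress gene. C1orf183 had log2 RNA changes of 0.17, 2.17, 2.31 and 2.29 at 2, 4, 6 and 19 h, and so like SESN1 it was little changed at 2 h. For SESN2 they were BBC3 (0.49), PHLDA3 (0.76), a repressor of AKT, and BHLHE40 (0.97), a transcriptional repressor. BBC3 encodes the pro-apoptotic protein PUMA and, like TP53INP1, is among the known p53 targets that the study lists. For DDIT4 they were BBC3 (0.69), PHLDA3 (0.92) and CHAC1 (1.03), a known ATF4 target that breaks down glutathione. SESN2 and DDIT4 differed from each other by 0.55, less than DDIT4 did from any tested gene outside the list. SESN1 and SESN2 differed by 1.23, and 60 tested genes outside the list were nearer to SESN1. All these changes share the same control libraries.

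Of 91 listed symbols of other mTOR pathway genes, older names included, 77 were in both tables and 51 were tested. Their median change was close to that of all tested genes, at 0.04 in RNA, -0.10 in density and -0.06 in TE at 19 h, against -0.07, -0.19 and -0.07. In RNA 1 was past 2-fold higher at 19 h and 2 were lower. In density 3 were higher and 7 lower, and in TE 0 were higher and 3 lower. These are 1.96% and 3.92% of the 51 in RNA, 5.88% and 13.7% in density and 5.88% in TE, near or below the shares of all tested genes given above. RNA of the kinase itself and of its partner moved little, with MTOR between 0.893-fold and 0.985-fold of the control and RPTOR between 0.902-fold and 1.09-fold over the 4 treated libraries. Their ribosome density moved more, between 0.852-fold and 1.31-fold for MTOR and between 0.853-fold and 1.42-fold for RPTOR. RHEB, the target of the TSC complex, had 54.0 FPKM of RNA in the control, 51.8 FPKM at 4 h, 32.3 FPKM at 6 h and 27.6 FPKM at 19 h, and its density changed by -1.15 (log2) at 19 h. MTOR, RPTOR and RHEB are named for their place beside the brakes and after their values were seen.

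A group of 5 of these genes were past 2-fold in the same direction at both 6 h and 19 h in RNA, density or TE. That is 9.80% of the 51, where 13.7% of all tested genes met the same rule. PIK3IP1, an inhibitor of PI3K upstream of AKT and mTOR, had 1.62 FPKM of RNA in the control, 1.28 FPKM at 2 h, 1.38 FPKM at 4 h, 5.46 FPKM at 6 h and 6.69 FPKM at 19 h. It reached its high level later than the sestrins did, 3.38-fold over the control at 6 h and 4.14-fold at 19 h. In the control, 2 h and 4 h libraries of both assays PIK3IP1 was below the 5 FPKM limit. It was thus among the tested genes only through 6 h and 19 h, the times by which it was named. ULK1, the autophagy kinase that mTORC1 inhibits, was higher in ribosome density by 1.03 at 6 h and 1.18 at 19 h (log2). TTI1, a scaffold needed for mTOR assembly, was lower in density by 1.17 at 6 h and 1.39 at 19 h, that is changes of -1.17 and -1.39, with RNA at 9.42 FPKM in the control and 4.69 FPKM at 19 h. EIF4E, the cap-binding factor that mTORC1 releases from its inhibitors, had a ribosome density of 152 FPKM in the control, 67.7 FPKM at 6 h and 47.9 FPKM at 19 h, while RNA went from 63.1 to 45.4 FPKM. EIF4B, a translation factor phosphorylated downstream of mTORC1, went up in RNA from 148 to 195 FPKM at 19 h and down in density from 136 to 55.4 FPKM, a TE change of -1.70 (SE 0.061). In the plot of both changes at 19 h it lies the furthest below the diagonal of the 51 pathway genes.

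**Figure D4:**
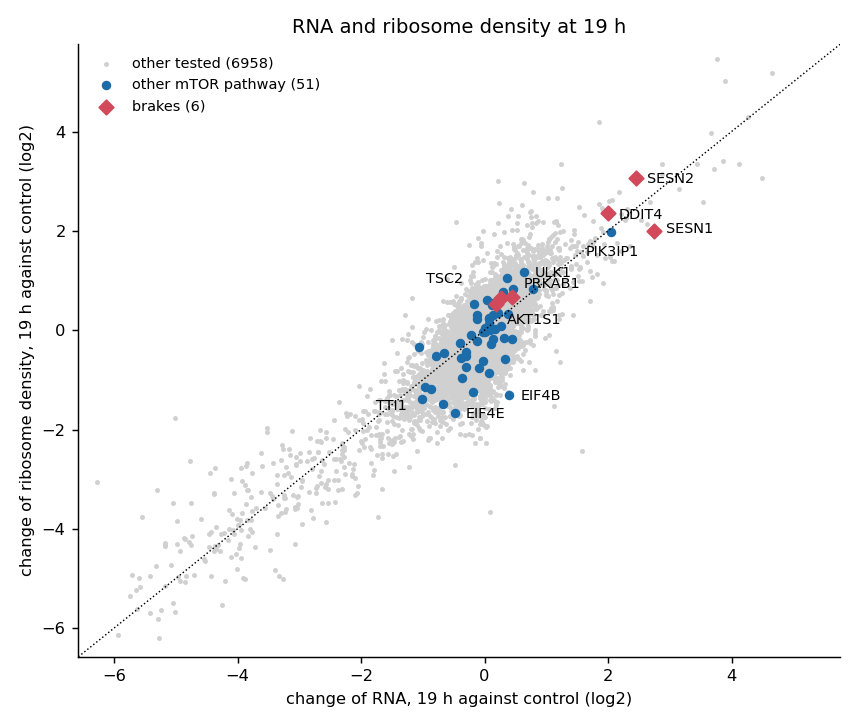
Change of RNA (x axis) and of ribosome density (y axis) at 19 h against the control, both log2, for 7015 tested genes (grey), 51 other mTOR pathway genes (blue) and the 6 tested brakes (red); on the dotted diagonal both change alike. SESN2, DDIT4 and SESN1 stand at the upper right, SESN2 above the diagonal and SESN1 below it, and EIF4B and EIF4E lie below the diagonal.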

How the data were processed

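RNA-Seq and Ribo-Seq of BJ fibroblasts were analysed in 10 libraries, with groups as labelled. The authors' methods name Bowtie, run against 1 protein-coding transcript per gene (Ensembl release 65; hg19 per the submitters' processing notes) with unique hits kept. The authors deposited FPKM values, to 3 decimals. The name of the Ribo-Seq table gives that assay alone, while the name of the other gives both assays. The latter was read as poly(A) RNA-Seq, which its name alone does not settle. In it 21 of 28 histone transcripts were below 1 FPKM, against 0 in the table read as Ribo-Seq. Ribo-Seq values appeared scaled to whole transcript length, as 7 of 8 brakes gave the same length from Ribo-Seq alone. TE levels are therefore not comparable between genes with unlike untranslated regions. Length cancels in the changes, but these can still depend on reads in untranslated regions, if counted. In the study's sample table the share of Ribo-Seq reads there differs between the control, 6 h and 19 h of the nutlin-3a run. The part of this in the TE changes was not tested.

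Library totals, transcript lengths and reads were recovered from the spacing of FPKM values, by code tested on simulated data, and used only for counting errors. PCR copies could not be told apart. Reads were taken as recovered where the expected number of chance fits was at most 0.01. SESN3 did not meet this, and DEPTOR's reads are for the shortest length that gave whole numbers. A floor of 1 FPKM was set and each library was compared with the control of its assay as a log2 ratio. Intervals are 95%, exact conditional for RNA and density and 1.96 SE for TE and for differences. Genes past 2-fold were counted by size alone. Pathway genes were named if past 2-fold in one direction at 6 h and 19 h in any measure. For SESN1, SESN2 and DDIT4 the 3 most alike tested genes were named. The members and lists were chosen with earlier results of these data known. The study describes an effect of sequencing run. Its sample table sets the 6 h and 19 h libraries beside a control of their own run. The labels do not say whether that is the control used here, and for 2 h and 4 h run and time cannot be told apart. The part of the run in the differences was not tested. Python 3.11.15, numpy 2.4.6, pandas 2.3.3, scipy 1.17.1 and matplotlib 3.10.9 were used.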

Additional observations from a re-analysis of the deposited data

How the results depend on the processing

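With 1 library per condition no change has a replicate check, and no paired analysis was possible because the labels give no replicates. The counts of brakes past 2-fold did not move in RNA or density with a pseudocount of 1 FPKM or centring on the median of all tested genes. Without a floor DEPTOR and SESN3, which lie below 1 FPKM, were also counted. In RNA 3, 4 and 5 brakes were then past 2-fold higher at 2, 6 and 19 h and 1 was lower at 4 h, in density 3, 4 and 4 were higher at 2, 6 and 19 h, and in TE 1 was higher at 2 h, 1 lower at 4 h and 1 higher at 6 h. Against the 2 h library 1 brake was past 2-fold higher in RNA and 1 in density at both 6 h and 19 h, since SESN2 and DDIT4 were already high at 2 h, and the RNA change of DDIT4 at 6 h became -0.11. With 1.5-fold as the limit 5 brakes were higher in density at 4, 6 and 19 h, 2, 3 and 1 were higher in TE at those times, and 1 was lower in TE at 2 h and at 19 h. With a floor of 5 FPKM, above the control levels of SESN1, SESN2 and DDIT4, 1 brake was past 2-fold lower in TE at 6 h and at 19 h, and 2 were past 2-fold higher in density at 19 h in place of 3. For the pathway genes at 19 h, where 3 (RNA), 10 (density) and 3 (TE) were past 2-fold, a pseudocount, a floor of 5 FPKM or centring left 1 in RNA. The floor of 5 FPKM left 6 in density, the 2 h baseline 1 in TE, and the 1.5-fold limit gave 10, 20 and 13. Among the 13 with a mean of at least 20 FPKM in each assay there were 0 in RNA and 5 in density. Of the brakes' log2 changes, 96 stayed inside their counting interval (SESN3, which has none, only if unchanged) and 4 did not without a floor, 91 and 9 when centred, 78 and 22 with a pseudocount, 68 and 32 with a floor of 5 FPKM, and 45 against the 2 h baseline (of 75). The sign differed for 8 of them with the 2 h baseline (of these, the RNA change of DDIT4 was the only one past 2-fold), 7 with a floor of 5 FPKM, 4 when centred, 1 with a pseudocount and 0 without a floor.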

Other observations

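Among the other pathway genes SGK1 (at 2 h) and TRIB3 (at 4 h) were past 2-fold in RNA and density early on and not at 6 h or 19 h. They are named after their values were seen. SGK1, a kinase regulated by mTORC2, had 8.61 FPKM of RNA in the control and 20.4 FPKM at 2 h, and its ribosome density was 5.44 and 18.2 FPKM. TRIB3, a pseudokinase that binds AKT and a known ATF4 target, had 5.96 FPKM of RNA in the control and 16.6 FPKM at 4 h, the time at which SESN2 and DDIT4 also peaked.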
